A study of Mus musculus with 18 samples.

Results

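The comparison described here sets mouse tubular epithelial cells treated with transforming growth factor β (TGFβ) against untreated cells of the same line, 6 libraries of 18 in the series. The cells, im-TEC, are a conditionally immortalized kidney tubule line. They carry an SV40 large T antigen that is active at a low growth temperature with interferon-γ, and both were withdrawn before seeding. The TGFβ group received 10 ng/mL TGFβ for 48 h and the control group none; each had 3 libraries and neither received a supplement. All 6 groups of the series share this line and its growth medium, which contains serum, insulin, hydrocortisone and EGF. The other 12 libraries are TGFβ+NAM, NAM, TGFβ+SAM and SAM, where NAM is nicotinamide (1 mM) and SAM is S-adenosyl methionine (0.5 mM). Every gene that passed the low-count filter was a member, 13469 of 55487 gene rows, and 56 lists of transcription factors, receptors, secreted factors, metabolic enzymes and transporters order the account. Actin, collagen and interferon genes are not described as groups.

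TGFβ signals through a pair of receptor kinases that phosphorylate SMAD2 and SMAD3, which enter the nucleus with SMAD4 and act beside other DNA-binding factors such as AP-1. Bone morphogenetic proteins (BMPs) use related receptors and SMAD1, SMAD5 and SMAD9, and they induce the ID proteins. In the kidney TGFβ is known as a driver of fibrosis, in which tubule cells lose transport functions and secrete matrix, protease inhibitors and growth factors.

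Libraries were made from the 3′ ends of polyadenylated RNA, so that a level does not depend on transcript length. The 6 libraries held between 4171170 and 7088702 reads assigned to genes, and between 15855 and 16240 genes had a read. Reads on mitochondrial genes were 6.89% to 7.60% of reads in genes in the TGFβ libraries and 9.45% to 9.72% in the control libraries, and their part in the results was not tested. The first principal component of the 6 libraries, with 50.8% of the variance, separated the groups, and the second, with 14.5%, separated TGFβ replicates 2 and 3. No pair of libraries agreed within sampling noise. The labels do not say whether replicates were separate cultures. The p-values therefore measure the spread between libraries of a group, estimated over all 18 libraries of the series, and this spread may be technical. Levels are CPM, counts scaled to the same library size, with library sizes scaled by the trimmed mean of M values (TMM), as mean ± SD over 3 libraries where averaged, and changes are fitted log2 values ± SE of TGFβ over control. In bulk RNA, fewer cells with a transcript and less RNA per cell cannot be told apart.

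The tubular label was checked against marker genes. Of 23 proximal tubule markers, 8 had no read in any of the 6 libraries, among them the phosphate transporter Slc34a1, the anion transporter Slc22a6 and the regulator Hnf4a. Of 14 epithelial markers, 3 had no read, Epcam, Cldn7 and Ocln. E-cadherin, Cdh1, was close to absent in both groups, with 7 reads in the TGFβ libraries together and 4 in the control libraries. Krt18 had 27 and 4 reads, Krt19 had 13 and 8, and Cldn4 had 2 and 0, in the same order. The kidney lineage factors Pax8 and Pax2, the kidney cadherin Cdh16 and the endocytic receptor Lrp2 were present: Pax2 stood at 187, 223 and 191 CPM with TGFβ, against 293, 314 and 307 CPM in control, and Lrp2 at 82.1, 59.4 and 71.7 CPM with TGFβ, against 88.9, 112 and 103 CPM in control. Cdh16 fell to 58, 56.7 and 51.8 CPM with TGFβ, against 188, 162 and 156 CPM in control (log2 change -1.60 ± 0.12, adjusted p = 2.00e-14). Aqp1, the water channel of the proximal tubule, fell to 112, 123 and 81.8 CPM with TGFβ, against 986, 1023 and 1084 CPM in control (log2 change -3.28 ± 0.11, adjusted p = 7.56e-25), while keratin Krt8 rose to 182, 190.3 and 195 CPM with TGFβ, against 92.3, 103 and 103 CPM in control (log2 change 0.93 ± 0.10, adjusted p = 2.68e-09). Kidney lineage factors were thus measured in both groups, and many defining markers of the mature proximal tubule in neither.

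Of the 13469 genes, 1307 were higher and 1312 lower with TGFβ at a Benjamini-Hochberg adjusted p under 0.05 by edgeR's quasi-likelihood test, 9.7% and 9.74% of genes tested, or 19.4% in all. By at least 2-fold, 345 (2.56%) were higher and 434 (3.22%) lower. The median log2 change was 0.01, and the middle 50% of genes lay between -0.29 and 0.27. The libraries of both groups did not overlap for 36.2% of all tested genes. The named genes that passed were picked by their p and in part for no overlap, so nothing is read from their count without overlap, 262 of 264, all but Rgma and Notum.

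**Figure D1:**
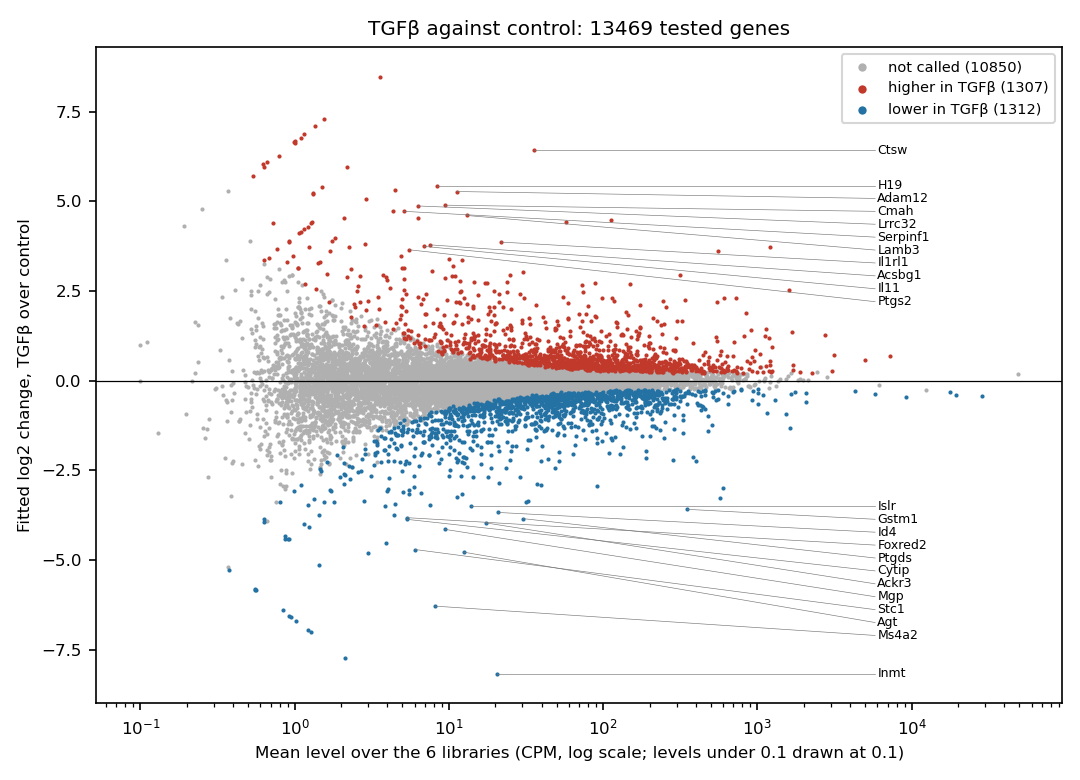
Fitted log2 change of TGFβ over control (y axis) against the mean level of each tested gene over the 6 libraries (x axis, CPM, log scale), with called genes in colour and the largest named rises and falls labelled. Ctsw had the highest and Inmt the lowest value among the labelled genes.

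Several of the largest rises were in proteins of the cell surface and the extracellular space. Lamb3 (ENSMUSG00000026639, chromosome 1, 193207699 to 193343878, plus strand in the GRCm38 annotation), the β3 chain of the basement membrane protein laminin 332, stood at 29.5, 22.3 and 23.3 CPM with TGFβ, against 0.282, 1.0 and 1.86 CPM in control (log2 change 4.61 ± 0.41, adjusted p = 7.56e-12). Serpinf1, which encodes the antiangiogenic factor PEDF, stood at 14.5, 4.87 and 10.1 CPM with TGFβ, against 0.282, 0.286 and 0.507 CPM in control (log2 change 4.72 ± 0.64, adjusted p = 2.55e-07). All TGFβ libraries lay above all control libraries for these genes, and Serpinf1 and Lamb3 were near the detection limit in control cells. Among enzymes, Cmah, which makes the sialic acid Neu5Gc, stood at 17.5, 15.4 and 22.4 CPM with TGFβ, against 0.423, 1.0 and 0.338 CPM in control (log2 change 4.89 ± 0.51, adjusted p = 5.18e-10), and the acyl-CoA synthetase Acsbg1 at 13.6, 12.9 and 15.7 CPM with TGFβ, against 0.564, 1.57 and 0.845 CPM in control (log2 change 3.79 ± 0.50, adjusted p = 1.06e-07). Ctsw, a cathepsin known from lymphocytes, had the largest rise under the rule (log2 change 6.43 ± 0.30, adjusted p = 1.92e-20), yet its 3′ end lies over Fibp on the other strand, and without a stated strand setting its reads are uncertain.

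Several of the largest falls were in secreted proteins and small-molecule enzymes. Agt, angiotensinogen, the precursor of angiotensin peptides, stood at 1.35, 0.471 and 0.737 CPM with TGFβ, against 19.9, 26.7 and 25.7 CPM in control (log2 change -4.78 ± 0.34, adjusted p = 1.11e-14). Islr, a secreted leucine-rich repeat protein, stood at 2.7, 2.36 and 1.47 CPM with TGFβ, against 25.8, 25.3 and 25.8 CPM in control (log2 change -3.51 ± 0.30, adjusted p = 2.52e-12). Both were close to the detection limit in TGFβ cells and well above it in every control library. Foxred2, a redox protein of the endoplasmic reticulum, stood at 0.168, 0.786 and 1.23 CPM with TGFβ, against 8.74, 8.87 and 12.2 CPM in control (log2 change -3.82 ± 0.55, adjusted p = 6.66e-07). Cytip, a partner of the exchange factor cytohesin, stood at 1.35, 0.157 and 0.491 CPM with TGFβ, against 9.72, 11.9 and 8.61 CPM in control (log2 change -3.87 ± 0.60, adjusted p = 3.10e-06). Ms4a2, the β chain of the IgE receptor, had 3 reads in the TGFβ libraries together and 323 in the control libraries, a ratio of control to TGFβ of 88.1 with a 95% counting interval from 29.9 to 429. Of 19 immune markers, 10 had no read in these libraries and 4 were tested, of which 3 fell: Cd68 stood at 5.73, 7.38 and 6.63 CPM with TGFβ, against 14.5, 11.4 and 14.7 CPM in control (log2 change -1.04 ± 0.28, adjusted p = 0.00518), and Cd14 and Csf1r had log2 changes of -0.67 ± 0.22 and -0.62 ± 0.13. Fcer1g, another chain of the IgE receptor, had 37 reads in the TGFβ libraries and 11 in the control libraries and did not pass. The call of Cd14 was lost without control replicate 2 or 3 or TGFβ replicate 1 or 3 (adjusted p = 0.0582 to 0.157), and the part of these markers in the fall of Ms4a2 was not tested. Inmt, indolethylamine N-methyltransferase, had 2 reads in the TGFβ libraries and 823 in the control libraries, a ratio of control to TGFβ of 337 with an interval from 92.9 to 2785. Counting intervals cover counting error only, since reads carry no molecular identifiers.

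Promoters of genes that rose are shown because SMAD and AP-1 factors bind short DNA words near their targets. The words searched were GTCTAGAC, a palindromic SMAD word, AGCCAGAC, a word with the SMAD element CAGAC, and TGACTCA, the AP-1 word, on both strands; none of them overlapped another in the windows printed. Of 106 named genes that rose, 73 had a RefSeq window of 250 bases before to 50 after the start, and 9 windows held a word. The 4 with the largest changes are given 5′ to 3′ in the gene's own direction from RefSeq GRCm38.p6, with the word in capitals, and TGAGTCA and GTCTGGCT are the same words read on the other strand.
Runx3, chr4:135152295-135152594, plus strand: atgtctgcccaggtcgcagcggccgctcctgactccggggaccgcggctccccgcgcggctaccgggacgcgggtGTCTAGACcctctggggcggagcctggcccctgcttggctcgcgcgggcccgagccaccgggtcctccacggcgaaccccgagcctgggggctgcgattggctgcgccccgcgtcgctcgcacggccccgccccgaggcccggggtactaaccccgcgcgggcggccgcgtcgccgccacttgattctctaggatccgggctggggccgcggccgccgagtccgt
Il11, chr7:4778092-4778391, minus strand: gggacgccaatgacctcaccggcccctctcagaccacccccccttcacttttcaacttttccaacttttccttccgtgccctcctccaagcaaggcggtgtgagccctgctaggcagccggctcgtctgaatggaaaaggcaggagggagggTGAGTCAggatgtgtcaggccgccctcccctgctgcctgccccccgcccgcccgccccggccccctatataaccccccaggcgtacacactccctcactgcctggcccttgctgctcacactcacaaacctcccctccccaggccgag
Mgll, chr6:88724454-88724753, plus strand: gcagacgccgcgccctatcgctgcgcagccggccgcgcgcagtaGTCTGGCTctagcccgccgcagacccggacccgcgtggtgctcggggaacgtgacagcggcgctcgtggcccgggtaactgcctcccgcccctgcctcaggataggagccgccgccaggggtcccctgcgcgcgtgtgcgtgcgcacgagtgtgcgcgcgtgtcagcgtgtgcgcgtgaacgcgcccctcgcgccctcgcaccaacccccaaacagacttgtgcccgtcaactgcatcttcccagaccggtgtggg
Cxcl10, chr5:92348840-92349139, minus strand: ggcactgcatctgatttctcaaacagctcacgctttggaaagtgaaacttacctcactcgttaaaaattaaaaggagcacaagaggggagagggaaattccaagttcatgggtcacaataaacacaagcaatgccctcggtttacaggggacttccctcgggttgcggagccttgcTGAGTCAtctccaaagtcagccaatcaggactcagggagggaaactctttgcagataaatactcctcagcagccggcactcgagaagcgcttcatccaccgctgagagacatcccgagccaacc
Across all 32851 RefSeq windows, 0.213% held GTCTAGAC, 1.29% AGCCAGAC and 5.2% TGACTCA, and 6.65% held any of them. Any word was in 5.83% of windows of the higher genes, 7.94% of the lower genes, 4.91% of genes that were not called and 5.35% of all tested genes. By 2-fold or more it was in 9.62% of windows of the higher and 9.55% of the lower genes. The differences between these shares were not tested, and a match in such a window is a string of letters, not a measured binding site. The windows printed for Runx3, Il11 and Mgll lie inside the annotated genes, which begin at 135120652, 4782859 and 88724412. Which start the cells used was not tested.

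Transcription factors changed in both directions. Over the 14 lists, 35 of 213 tested factors were higher and 48 lower, 39.0% against 19.4% of all genes, with a median log2 change of -0.07. Lists hold well-studied genes chosen with earlier results known and were not tested as sets, so a share above that of all genes describes them only. Where leaving out a single library moved a list's count by over 1.5 times, the libraries that did so, each left out alone, are named with the count.

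Some SMAD feedback genes rose and ID genes fell. Among SMAD factors and corepressors, 18 of 19 listed genes passed the filter. Among those tested, 3 were higher and 3 lower, 33.3% called, and the median log2 change was 0.09. Pmepa1, a membrane protein that sequesters SMAD2 and SMAD3, stood at 916, 983 and 1114 CPM with TGFβ, against 197, 215 and 197 CPM in control (log2 change 2.31 ± 0.09, adjusted p = 1.05e-22). Skil, the corepressor SnoN, stood at 101, 109.8 and 106 CPM with TGFβ, against 55.1, 48.9 and 57.6 CPM in control (log2 change 0.97 ± 0.11, adjusted p = 8.47e-09). In contrast, Smad6, an inhibitory SMAD of the BMP branch, fell to 23.1, 22.8 and 14.7 CPM with TGFβ, against 43, 54.5 and 59.5 CPM in control (log2 change -1.35 ± 0.17, adjusted p = 4.00e-08). Smad9, a BMP SMAD, stood at 1.85, 1.1 and 1.47 CPM with TGFβ, against 7.19, 8.72 and 9.46 CPM in control (log2 change -2.51 ± 0.51, adjusted p = 2.19e-04). The inhibitory Smad7 did not pass, with 45.8, 44.6 and 57.5 CPM with TGFβ, against 43.5, 32 and 38 CPM in control (log2 change 0.37 ± 0.18, adjusted p = 0.154), nor did Smad3 (log2 change -0.14 ± 0.10, adjusted p = 0.396). In the list of inhibitors of DNA binding and BMP-responsive factors, 11 of 16 listed genes passed the filter. With TGFβ, 1 was higher and 6 lower, 63.6% called, and the median log2 change was -0.97. ID proteins pair with basic helix-loop-helix factors and keep them from DNA. Id4 nearly disappeared, with 4.04, 2.83 and 1.97 CPM with TGFβ, against 42.8, 34 and 40.2 CPM in control (log2 change -3.68 ± 0.25, adjusted p = 2.34e-15), and Id1 and Id3 also fell, with log2 changes of -1.17 ± 0.09 and -0.97 ± 0.10. Atoh8, a basic helix-loop-helix factor downstream of BMP signals, stood at 3.03, 1.57 and 2.7 CPM with TGFβ, against 16.5, 19.3 and 29.6 CPM in control (log2 change -3.17 ± 0.31, adjusted p = 8.73e-11). Msx1, another BMP-responsive factor, did not pass (log2 change -0.47 ± 0.22, adjusted p = 0.149).

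Several immediate early genes were lower at 48 h. Egr1, a zinc finger factor of the early response to growth factors, stood at 57.3, 50.1 and 43.2 CPM with TGFβ, against 209, 207 and 209.8 CPM in control (log2 change -2.05 ± 0.11, adjusted p = 1.66e-18). Fos, an AP-1 subunit, stood at 11, 4.87 and 5.16 CPM with TGFβ, against 27.5, 28.7 and 20.4 CPM in control (log2 change -1.85 ± 0.28, adjusted p = 1.92e-06). Fosb stood at 0.842, 1.1 and 0.983 CPM with TGFβ, against 2.54, 5.29 and 5.74 CPM in control (log2 change -2.18 ± 0.52, adjusted p = 0.00161). All 3 were lower in every TGFβ library than in any control library. Fosl2, another AP-1 subunit, went the other way, with 330.1, 305 and 298 CPM with TGFβ, against 247, 248 and 248 CPM in control (log2 change 0.33 ± 0.09, adjusted p = 0.00392), and Jun did not pass, with 160.3 ± 13 CPM in TGFβ cells and 152 ± 10.7 CPM in control cells (log2 change 0.08 ± 0.09, adjusted p = 0.661). Over the list, 19 of 23 listed genes passed the filter. In the test, 4 were higher and 4 lower, 42.1% called, and the median log2 change was -0.14. There were 2 higher when control replicate 1 or TGFβ replicate 2 was left out. Leaving out control replicate 2 left 1 higher.

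Factors tied to mesenchymal programmes did not move as a block. For the list of mesenchymal transition factors, 20 of 25 listed genes passed the filter. Of these, 3 were higher and 3 lower, 30% called, and the median log2 change was 0.23. Zeb2, a repressor of E-cadherin, stood at 42, 36.6 and 36.4 CPM with TGFβ, against 20.9, 19.2 and 19.9 CPM in control (log2 change 0.94 ± 0.16, adjusted p = 2.43e-05). Ets1 stood at 94, 88.8 and 92.1 CPM with TGFβ, against 62.3, 58.3 and 54.7 CPM in control (log2 change 0.65 ± 0.11, adjusted p = 1.15e-05). Foxc1, a forkhead factor of mesenchyme and kidney development, fell instead, with 32.5, 43.8 and 38.6 CPM with TGFβ, against 83.2, 87.5 and 88.2 CPM in control (log2 change -1.17 ± 0.13, adjusted p = 4.44e-09), and so did the tendon factor Scx (log2 change -0.51 ± 0.10, adjusted p = 2.43e-04). Sox9 and Sox4, both linked to tubular repair, did not pass, with log2 changes of -0.19 ± 0.12 and -0.13 ± 0.07. The ETS list, which holds Ets1 too, leaned upward: 16 of 21 listed genes passed the filter. Among those tested, 6 were higher and 2 lower, 50% called, and the median log2 change was 0.27. Ets2 stood at 117, 122 and 107 CPM with TGFβ, against 74, 66.2 and 70.3 CPM in control (log2 change 0.72 ± 0.13, adjusted p = 2.32e-05) and the repressor Etv6 at 117, 102 and 104 CPM with TGFβ, against 78.1, 73.2 and 69.9 CPM in control (log2 change 0.54 ± 0.11, adjusted p = 1.47e-04). The count lower was 1 without control replicate 1 or 2. Without TGFβ replicate 1 or 2, the lower calls were lost.

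Among TEAD, RUNX and MRTF factors, 16 of 20 listed genes passed the filter. With TGFβ, 7 were higher and 1 lower, 50% called, and the median log2 change was 0.39. There were 4 higher when TGFβ replicate 2 was left out. Without control replicate 3 or TGFβ replicate 2, the lower call was lost. The clearest member was Vgll3, a cofactor that binds TEAD factors, with 49.4, 63.9 and 65.4 CPM with TGFβ, against 12.7, 16 and 12.8 CPM in control (log2 change 2.10 ± 0.17, adjusted p = 9.73e-13). Runx1, a DNA-binding factor induced in injured tubules, stood at 161, 184 and 194 CPM with TGFβ, against 108, 104 and 109.6 CPM in control (log2 change 0.75 ± 0.12, adjusted p = 4.39e-06). Its relative Runx3 had 23 reads in the TGFβ libraries and none in the control libraries, at least 9.37-fold higher against a floor of 3 counts over the group. Tead2 stood at 109.9, 94.1 and 114 CPM with TGFβ, against 59.9, 67.1 and 70.9 CPM in control (log2 change 0.68 ± 0.13, adjusted p = 6.83e-05), whereas Tead1 (0.05 ± 0.09) and the coactivator Wwtr1, known as TAZ (-0.17 ± 0.09), did not pass.

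Nephron factors fell more often than they rose. In the list of tubule and nephron factors, 17 of 36 listed genes passed the filter. In the test, 3 were higher and 9 lower, 70.6% called, and the median log2 change was -0.32. Tfcp2l1, a factor of the distal nephron and collecting duct, stood at 108, 90.03 and 80.6 CPM with TGFβ, against 227, 237 and 239 CPM in control (log2 change -1.33 ± 0.10, adjusted p = 1.22e-13). Tfap2a, an AP-2 factor, stood at 47.9, 39.8 and 32.9 CPM with TGFβ, against 101, 92.1 and 101 CPM in control (log2 change -1.28 ± 0.13, adjusted p = 1.09e-10). Gata3, which acts in ureteric bud growth, stood at 21.1, 17.9 and 22.6 CPM with TGFβ, against 54.3, 38.9 and 49.7 CPM in control (log2 change -1.22 ± 0.17, adjusted p = 4.42e-07). These 3 were lower by more than 2-fold. Pax2 also fell, with a log2 change of -0.60 ± 0.13, and Maf had -0.51 ± 0.10. Hoxb7, a marker of the ureteric bud, did not pass (log2 change -0.26 ± 0.13, adjusted p = 0.182). In the HOX list, 18 of 39 listed genes passed the filter and 4 passed the test, each of them lower, 22.2% called, near the 19.4% of all genes. The median log2 change of the tested genes was -0.22, and Hoxa10 and Hoxa9, which set position along the body axis, fell, with log2 changes of -0.65 ± 0.11 and -0.44 ± 0.09.

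**Figure D2:**
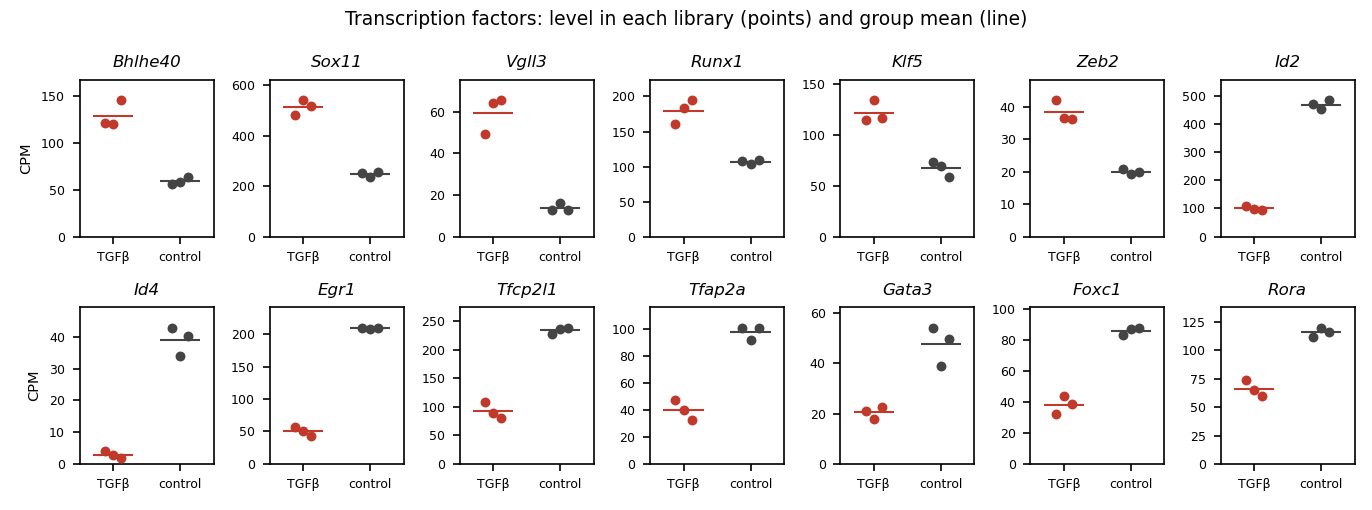
Level of 14 transcription factors in each of the 3 TGFβ and 3 control libraries (y axes, CPM, each starting at 0), with points for libraries and lines for group means. The 6 factors at the left of the top row were higher in every TGFβ library than in any control library, and the other 8, led by Id2, were lower.

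Of nuclear receptors, factors switched by hormones and lipids, 29 of 45 listed genes passed the filter and 9 passed the test, each of them lower, 31% called. The median log2 change of the tested genes was -0.25. Rora, which also drives the clock, stood at 74.1, 64.9 and 59.7 CPM with TGFβ, against 112, 120.1 and 116 CPM in control (log2 change -0.81 ± 0.13, adjusted p = 3.52e-06). Nr2f2, COUP-TFII, stood at 164, 179.7 and 212 CPM with TGFβ, against 268, 313 and 299 CPM in control (log2 change -0.67 ± 0.12, adjusted p = 3.30e-05). Nr4a1, an immediate early receptor, stood at 2.53, 3.61 and 2.7 CPM with TGFβ, against 5.36, 11 and 9.97 CPM in control (log2 change -1.55 ± 0.34, adjusted p = 7.14e-04). In the clock list, 18 of 20 listed genes passed the filter. With TGFβ, 1 was higher and 5 lower, 33.3% called, and the median log2 change was -0.18. The count lower was 3 without TGFβ replicate 3. Bhlhe40, a repressor of the clock and a TGFβ target, was the member that rose, with 122, 120.03 and 145 CPM with TGFβ, against 56.4, 58.8 and 64 CPM in control (log2 change 1.11 ± 0.11, adjusted p = 2.01e-10), and its relative Bhlhe41 did not pass (log2 change -0.17 ± 0.09, adjusted p = 0.223).

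Zinc finger, SOX and forkhead factors split within families. Klf5, which promotes epithelial proliferation, stood at 114, 134 and 116 CPM with TGFβ, against 73, 69.8 and 58.8 CPM in control (log2 change 0.85 ± 0.12, adjusted p = 7.27e-07), while Klf4, its differentiation-linked relative, fell to 62.5, 59.1 and 53.3 CPM with TGFβ, against 112, 107 and 102 CPM in control (log2 change -0.87 ± 0.12, adjusted p = 1.82e-07). Klf9, a glucocorticoid-responsive factor, fell (log2 change -0.62 ± 0.09, adjusted p = 8.81e-07) and Klf13 rose (log2 change 0.64 ± 0.13, adjusted p = 2.40e-04). Over the Krüppel-like list, 11 of 17 listed genes passed the filter. In the test, 3 were higher and 2 lower, 45.5% called, and the median log2 change was -0.04. Sox11, a factor of embryonic kidney and neural cells, stood at 484, 539.8 and 516 CPM with TGFβ, against 252, 237 and 256 CPM in control (log2 change 1.05 ± 0.10, adjusted p = 2.47e-11). Sox12, of the same subgroup, was lower and stood at 17, 12.1 and 12.3 CPM with TGFβ, against 28.8, 30.3 and 27.4 CPM in control (log2 change -1.06 ± 0.20, adjusted p = 1.23e-04). Among forkhead factors, 20 of 44 listed genes passed the filter. Of these, 3 were higher and 2 lower, 25% called against 19.4% of all genes, and the median log2 change was 0.05, with Foxj1, the master factor of motile cilia, at 92.3, 87.8 and 77.6 CPM with TGFβ, against 42, 51.8 and 54.6 CPM in control (log2 change 0.80 ± 0.12, adjusted p = 2.10e-06) and the stromal factor Foxd1 at 6.57, 6.6 and 6.14 CPM with TGFβ, against 10.3, 18.4 and 17.4 CPM in control (log2 change -1.25 ± 0.28, adjusted p = 7.97e-04). Trp63, a factor of basal epithelia, had no read in the TGFβ libraries and 49 in the control libraries, at least 13.4-fold lower against the floor of 3 counts over the group.

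Of 160 tested receptors, 24 were higher and 33 lower, 35.6% against 19.4% of all genes, with a median log2 change of -0.05. Tgfbr2, the type II receptor that binds TGFβ, did not pass: it stood at 187, 174 and 160.4 CPM with TGFβ, against 168, 182 and 192 CPM in control (log2 change -0.05 ± 0.10, adjusted p = 0.797), and the groups overlapped. Tgfbr3, betaglycan, a coreceptor that presents ligand, fell to 17.4, 17.3 and 13.5 CPM with TGFβ, against 32.4, 41.8 and 41.6 CPM in control (log2 change -1.25 ± 0.18, adjusted p = 8.27e-07). Acvr1, the type I receptor ALK2 of activins and BMPs, rose to 44.1, 34.4 and 41.5 CPM with TGFβ, against 25.7, 15.2 and 16.9 CPM in control (log2 change 1.05 ± 0.19, adjusted p = 3.31e-05). Bmpr1a did not pass (log2 change -0.10 ± 0.12, adjusted p = 0.625).

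Growth factor receptors fell more often than they rose. In the list of receptor tyrosine kinases, 24 of 42 listed genes passed the filter. Among those tested, 5 were higher and 8 lower, 54.2% called, and the median log2 change was -0.31. Without control replicate 1 or 2 or TGFβ replicate 1 or 2, 3 were higher. Fgfr2, the receptor of FGF7 and FGF10 in epithelia in its IIIb form, stood at 53.2, 51.4 and 45.7 CPM with TGFβ, against 114, 84.1 and 109 CPM in control (log2 change -1.02 ± 0.12, adjusted p = 5.60e-09). Fgfr3 stood at 8.26, 16.3 and 8.84 CPM with TGFβ, against 29.5, 27.6 and 29.4 CPM in control (log2 change -1.35 ± 0.23, adjusted p = 2.06e-05). Erbb4, a neuregulin receptor, stood at 3.37, 3.46 and 1.47 CPM with TGFβ, against 11.8, 9.87 and 14.4 CPM in control (log2 change -2.06 ± 0.34, adjusted p = 7.54e-06). Mertk, which recognises dying cells through Gas6, stood at 0.168, 1.41 and 2.7 CPM with TGFβ, against 12.1, 9.29 and 9.97 CPM in control (log2 change -2.96 ± 0.51, adjusted p = 1.73e-05). Erbb4 and Mertk were near the detection limit in TGFβ cells. Met, the receptor of hepatocyte growth factor, missed the threshold (log2 change -0.23 ± 0.09, adjusted p = 0.0527). The stromal receptor Pdgfrb had 38 reads in the TGFβ libraries and 2 in the control libraries, a ratio of TGFβ to control of 23.2 with a counting interval from 6.00 to 199, and its call ended when control replicate 1 was left out (adjusted p = 0.0548) and when replicate 3 was (adjusted p = 0.0506).

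Cytokine and G protein-coupled receptors changed in both directions. Il1rl1, the interleukin-33 receptor ST2 (ENSMUSG00000026069, chromosome 1, 40429570 to 40465415, plus strand), stood at 45, 35.2 and 42 CPM with TGFβ, against 3.52, 3.43 and 1.18 CPM in control (log2 change 3.87 ± 0.28, adjusted p = 2.09e-14). Il4ra, a subunit of interleukin-4 and interleukin-13 receptors, stood at 39.8, 36.6 and 33.9 CPM with TGFβ, against 24.9, 20.2 and 23.8 CPM in control (log2 change 0.68 ± 0.17, adjusted p = 0.00286). Il6st, the shared signalling subunit gp130, fell to 160.2, 170.2 and 156 CPM with TGFβ, against 225, 212 and 211 CPM in control (log2 change -0.42 ± 0.09, adjusted p = 9.79e-04). For cytokine receptors, 26 of 45 listed genes passed the filter. With TGFβ, 6 were higher and 4 lower, 38.5% called, and the median log2 change was 0.07. There were 3 higher when control replicate 1 or TGFβ replicate 2 was left out. Leaving out control replicate 1 or 2 or TGFβ replicate 2 left 2 lower. Among G protein-coupled receptors, 37 of 121 listed genes passed the filter. In the test, 2 were higher and 5 lower, 18.9% called, near the 19.4% of all genes, and the median log2 change was -0.16. The count higher was 1 without TGFβ replicate 1. Without TGFβ replicate 1, 3 were lower. Ackr3, which removes CXCL12 and CXCL11, stood at 1.85, 1.1 and 3.69 CPM with TGFβ, against 36.2, 30.5 and 30.6 CPM in control (log2 change -3.97 ± 0.30, adjusted p = 7.42e-14). Adora1, the adenosine A1 receptor, stood at 1.85, 6.6 and 3.69 CPM with TGFβ, against 23.8, 18.7 and 23.5 CPM in control (log2 change -2.42 ± 0.33, adjusted p = 1.92e-07). Celsr2, a planar polarity cadherin with a receptor tail, rose to 182, 185 and 189 CPM with TGFβ, against 74, 78.9 and 75.8 CPM in control (log2 change 1.28 ± 0.12, adjusted p = 1.20e-11). The thrombin receptor F2r did not pass, with 290.1 ± 26.6 CPM in TGFβ cells and 265 ± 15.9 CPM in control cells (log2 change 0.13 ± 0.09, adjusted p = 0.345).

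Endocytic receptors changed in both directions. In the list, 19 of 31 listed genes passed the filter. Of these, 5 were higher and 8 lower, 68.4% called, and the median log2 change was -0.06. There were 3 higher when control replicate 1 was left out. Leaving out TGFβ replicate 1 left 5 lower. Tfrc, the transferrin receptor, stood at 49.5, 50.9 and 49.9 CPM with TGFβ, against 128, 126 and 133 CPM in control (log2 change -1.36 ± 0.12, adjusted p = 6.42e-12). Vldlr, a lipoprotein receptor, stood at 61.8, 61.9 and 52.1 CPM with TGFβ, against 141, 127 and 140.03 CPM in control (log2 change -1.21 ± 0.11, adjusted p = 9.73e-12). Sorl1, a sorting receptor, stood at 48.2, 53.1 and 50.4 CPM with TGFβ, against 123, 113 and 111 CPM in control (log2 change -1.20 ± 0.11, adjusted p = 1.20e-11). Igf2r, which clears IGF2 and sorts lysosomal enzymes, fell, with a log2 change of -1.02 ± 0.17. Sorcs2, a receptor of proneurotrophins, rose to 38.6, 49.3 and 33.2 CPM with TGFβ, against 6.76, 7.01 and 8.11 CPM in control (log2 change 2.48 ± 0.21, adjusted p = 1.56e-12). Fas, the death receptor, rose to 22.7, 19.3 and 27.3 CPM with TGFβ, against 14.1, 12.6 and 13 CPM in control (log2 change 0.79 ± 0.20, adjusted p = 0.00235) and the semaphorin receptor Plxnd1 to 76.2, 77.6 and 79.1 CPM with TGFβ, against 41.4, 44 and 37 CPM in control (log2 change 0.92 ± 0.13, adjusted p = 6.76e-07), whereas Plxnb2 fell (log2 change -0.44 ± 0.08, adjusted p = 9.52e-05). The neuropilin Nrp1 did not pass (log2 change -0.15 ± 0.08, adjusted p = 0.219).

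Of the 5 classes, secreted factors had the highest share called: 51 of 173 tested genes were higher and 36 lower, 50.3% against 19.4% of all genes, with a median log2 change of 0.03. Within the TGFβ family, activin and BMP ligands moved in opposite directions. Inhba, the activin A subunit, stood at 334, 274 and 373 CPM with TGFβ, against 101, 103 and 86 CPM in control (log2 change 1.75 ± 0.11, adjusted p = 4.36e-16). Inhbb stood at 49, 52.8 and 68.3 CPM with TGFβ, against 35, 38 and 40.9 CPM in control (log2 change 0.57 ± 0.14, adjusted p = 0.00210). Bmp4 stood at 179.6, 141 and 163 CPM with TGFβ, against 450.3, 411 and 373 CPM in control (log2 change -1.35 ± 0.12, adjusted p = 5.35e-12). Bmp6 fell to 52.4, 53.4 and 48.9 CPM with TGFβ, against 117, 112 and 106 CPM in control (log2 change -1.11 ± 0.12, adjusted p = 9.24e-10), though Txndc5 on the other strand lies over its 3′ end. Bmp1, a protease that matures procollagen and not a BMP in function, rose (log2 change 1.01 ± 0.11, adjusted p = 2.41e-09). Tgfb1, the ligand itself, was low, with 5.22, 17.6 and 5.9 CPM with TGFβ, against 6.2, 6.58 and 8.61 CPM in control, and it did not pass (log2 change 0.46 ± 0.35, adjusted p = 0.427). TGFβ replicate 2 lay above the other libraries, among which the groups overlapped. Over the ligand list, 11 of 31 listed genes passed the filter. Among those tested, 5 were higher and 3 lower, 72.7% called, and the median log2 change was 0.46. The count higher was 3 without control replicate 1 or 3 or TGFβ replicate 1 or 3.

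Proteins that hold, release or block these ligands rose in part. Ltbp1, which stores latent TGFβ in the matrix, stood at 83.6, 88.6 and 121 CPM with TGFβ, against 22.1, 20.02 and 22.5 CPM in control (log2 change 2.17 ± 0.16, adjusted p = 6.51e-14). Its relative Ltbp3 fell to 83.2, 89.7 and 78.9 CPM with TGFβ, against 149, 149 and 139 CPM in control (log2 change -0.79 ± 0.10, adjusted p = 1.16e-07), though without a stated strand setting its count is uncertain. Lrrc32, or GARP, which anchors latent TGFβ on the cell surface, stood at 12.6, 11 and 13 CPM with TGFβ, against 0.564, 0.572 and 0 CPM in control (log2 change 4.87 ± 0.51, adjusted p = 4.70e-10). Fstl1, a secreted follistatin-like glycoprotein, stood at 1284, 1385 and 1272 CPM with TGFβ, against 506, 498 and 488 CPM in control (log2 change 1.40 ± 0.08, adjusted p = 3.67e-18). Follistatin, Fst, which neutralises activin, did not pass at a high level, with 2054, 2076 and 2295 CPM with TGFβ, against 2005, 2128 and 2168 CPM in control (log2 change 0.03 ± 0.08, adjusted p = 0.871), and the BMP antagonist Chrdl1 fell to 8.93, 9.27 and 4.91 CPM with TGFβ, against 18.2, 21.3 and 25 CPM in control (log2 change -1.45 ± 0.27, adjusted p = 6.65e-05). Of the modulators, 15 of 30 listed genes passed the filter. With TGFβ, 4 were higher and 2 lower, 40% called, and the median log2 change was 0.41.

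Ligands for growth and axon guidance were regulated in both directions. Pdgfb, a mitogen for mesenchymal cells, stood at 401, 432 and 398 CPM with TGFβ, against 187, 169.7 and 183 CPM in control (log2 change 1.19 ± 0.10, adjusted p = 4.17e-13). The neurotrophic factors Bdnf and Gdnf rose. Bdnf stood at 77.7, 75.3 and 68.3 CPM with TGFβ, against 35.8, 36.3 and 43.7 CPM in control (log2 change 0.94 ± 0.14, adjusted p = 1.13e-06). Gdnf, which drives ureteric bud outgrowth in the embryo, stood at 22.9, 25 and 17.9 CPM with TGFβ, against 8.46, 11.6 and 7.43 CPM in control (log2 change 1.26 ± 0.25, adjusted p = 1.52e-04). Tgfa, a ligand of the EGF receptor, fell to 5.39, 5.03 and 5.9 CPM with TGFβ, against 16.3, 13.3 and 13.7 CPM in control (log2 change -1.41 ± 0.31, adjusted p = 7.14e-04). Nrg2 stood at 2.86, 3.46 and 3.19 CPM with TGFβ, against 10.4, 11 and 9.63 CPM in control (log2 change -1.70 ± 0.39, adjusted p = 9.91e-04). Gas6, the ligand of Mertk, fell to 456, 442 and 422 CPM with TGFβ, against 613, 599 and 690.3 CPM in control (log2 change -0.53 ± 0.08, adjusted p = 2.40e-06). Vegfd, a lymphatic growth factor, stood at 13.8, 11.9 and 9.34 CPM with TGFβ, against 24.4, 28 and 27 CPM in control (log2 change -1.16 ± 0.23, adjusted p = 1.27e-04). Apln, apelin, stood at 1.85, 2.51 and 0.983 CPM with TGFβ, against 7.75, 11.3 and 7.43 CPM in control (log2 change -2.25 ± 0.43, adjusted p = 1.06e-04). Stc1, stanniocalcin 1, nearly disappeared, with 0.674, 0.314 and 0.246 CPM with TGFβ, against 10.01, 12.3 and 12.7 CPM in control (log2 change -4.71 ± 0.53, adjusted p = 2.68e-09), and Stc2 also fell (log2 change -0.65 ± 0.12, adjusted p = 3.75e-05). Semaphorins mostly fell where they passed, among them Sema5a, with 124, 132 and 114 CPM with TGFβ, against 315, 278 and 291 CPM in control (log2 change -1.26 ± 0.10, adjusted p = 1.77e-13), and Sema3c and Sema3e, with log2 changes of -1.32 ± 0.18 and -0.88 ± 0.14. Slit2, a repellent of axons and leukocytes, rose to 8.09, 9.9 and 6.14 CPM with TGFβ, against 2.82, 1.29 and 1.69 CPM in control (log2 change 2.05 ± 0.48, adjusted p = 0.00128). In the semaphorin, netrin and slit list, 17 of 30 listed genes passed the filter. In the test, 1 was higher and 6 lower, 41.2% called, and the median log2 change was -0.36.

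Few WNT genes were measured. Wnt9a stood at 70.3, 57.7 and 63.6 CPM with TGFβ, against 21.6, 22.2 and 18.2 CPM in control (log2 change 1.62 ± 0.20, adjusted p = 3.96e-08). Wnt7a stood at 44.5, 30.5 and 32.7 CPM with TGFβ, against 13.8, 18.4 and 15.7 CPM in control (log2 change 1.17 ± 0.21, adjusted p = 3.49e-05). Wnt4, which induces nephron epithelium in the embryo, fell to 12.3, 8.01 and 12.3 CPM with TGFβ, against 19.6, 23.2 and 20.6 CPM in control (log2 change -0.97 ± 0.21, adjusted p = 6.85e-04). Dkk3, a secreted protein known from tubular stress, rose to 250.05, 234 and 235 CPM with TGFβ, against 98.2, 106 and 93.2 CPM in control (log2 change 1.27 ± 0.10, adjusted p = 1.40e-13), and Wnt5a did not pass (log2 change -0.26 ± 0.19, adjusted p = 0.385). Of 34 listed WNT ligands and secreted inhibitors, 27 were below the filter. Of the 7 tested, 4 were higher and 2 lower, 85.7% called against 19.4% of all genes. Without control replicate 3 or TGFβ replicate 1 or 3, 1 was lower.

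Cytokines and chemokines changed in both directions. Il11, a profibrotic cytokine of the interleukin-6 family, stood at 15.7, 10.1 and 13 CPM with TGFβ, against 0.282, 2.0 and 0.507 CPM in control (log2 change 3.74 ± 0.52, adjusted p = 3.39e-07). Csf1, the macrophage growth factor, stood at 757, 750.1 and 715 CPM with TGFβ, against 569.5, 562 and 540.2 CPM in control (log2 change 0.41 ± 0.08, adjusted p = 6.65e-05). Spp1, osteopontin, fell to 311, 302 and 334 CPM with TGFβ, against 544, 544 and 570.2 CPM in control (log2 change -0.81 ± 0.10, adjusted p = 2.59e-08). Cxcl10, which is also an interferon gene, rose (log2 change 2.05 ± 0.11, adjusted p = 7.37e-19). Ppbp, a platelet chemokine precursor, stood at 14.3, 16.3 and 23.8 CPM with TGFβ, against 5.36, 5.29 and 7.43 CPM in control (log2 change 1.58 ± 0.29, adjusted p = 6.29e-05) and the neutrophil chemokines Cxcl5 and Cxcl1 fell, with log2 changes of -2.30 ± 0.36 and -0.59 ± 0.15. For chemokines, 16 of 40 listed genes passed the filter. Of these, 6 were higher and 3 lower, 56.2% called, and the median log2 change was 0.08. There were 2 higher when control replicate 1 was left out. The TNF ligand Tnfsf15 rose to 7.75, 6.76 and 7.62 CPM with TGFβ, against 2.25, 2.57 and 1.86 CPM in control (log2 change 1.71 ± 0.43, adjusted p = 0.00274).

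Protease inhibitors and proteoglycans leaned upward. Among serpins and other inhibitors, 19 of 101 listed genes passed the filter. Among those tested, 8 were higher and 4 lower, 63.2% called, and the median log2 change was 0.21. Timp3, an inhibitor of matrix metalloproteases bound to matrix, stood at 1586, 1594 and 1807 CPM with TGFβ, against 595, 621 and 619 CPM in control (log2 change 1.44 ± 0.08, adjusted p = 1.15e-17). Timp1 stood at 70.1, 82.6 and 76.4 CPM with TGFβ, against 23, 28.9 and 26 CPM in control (log2 change 1.56 ± 0.16, adjusted p = 2.48e-10), while Timp2 did not pass, with 1851 ± 120.5 CPM in TGFβ cells and 1814 ± 122 CPM in control cells (log2 change 0.03 ± 0.11, adjusted p = 0.904). Cst3, cystatin C, an inhibitor of cathepsins, fell to 162, 165 and 167 CPM with TGFβ, against 278, 287 and 287 CPM in control (log2 change -0.78 ± 0.10, adjusted p = 4.38e-08). Among proteoglycans and hyaluronan synthases, 17 of 41 listed genes passed the filter. With TGFβ, 9 were higher and 1 lower, 58.8% called, and the median log2 change was 0.44. The hyaluronan receptor Cd44 stood at 739, 707 and 782 CPM with TGFβ, against 363, 344 and 332 CPM in control (log2 change 1.10 ± 0.09, adjusted p = 3.38e-13), fibromodulin, Fmod, which binds collagen fibrils, at 118, 89.9 and 111 CPM with TGFβ, against 46.5, 55.5 and 45.9 CPM in control (log2 change 1.10 ± 0.12, adjusted p = 7.57e-10) and versican, Vcan, at 27.5, 38 and 32.9 CPM with TGFβ, against 9.72, 15.3 and 12 CPM in control (log2 change 1.41 ± 0.22, adjusted p = 3.20e-06). Syndecan 4, Sdc4, was the member that fell, with 105, 106 and 106 CPM with TGFβ, against 173, 168 and 184 CPM in control (log2 change -0.73 ± 0.11, adjusted p = 1.44e-06), and Sdc1 did not pass (log2 change -0.02 ± 0.10, adjusted p = 0.926).

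**Figure D3:**
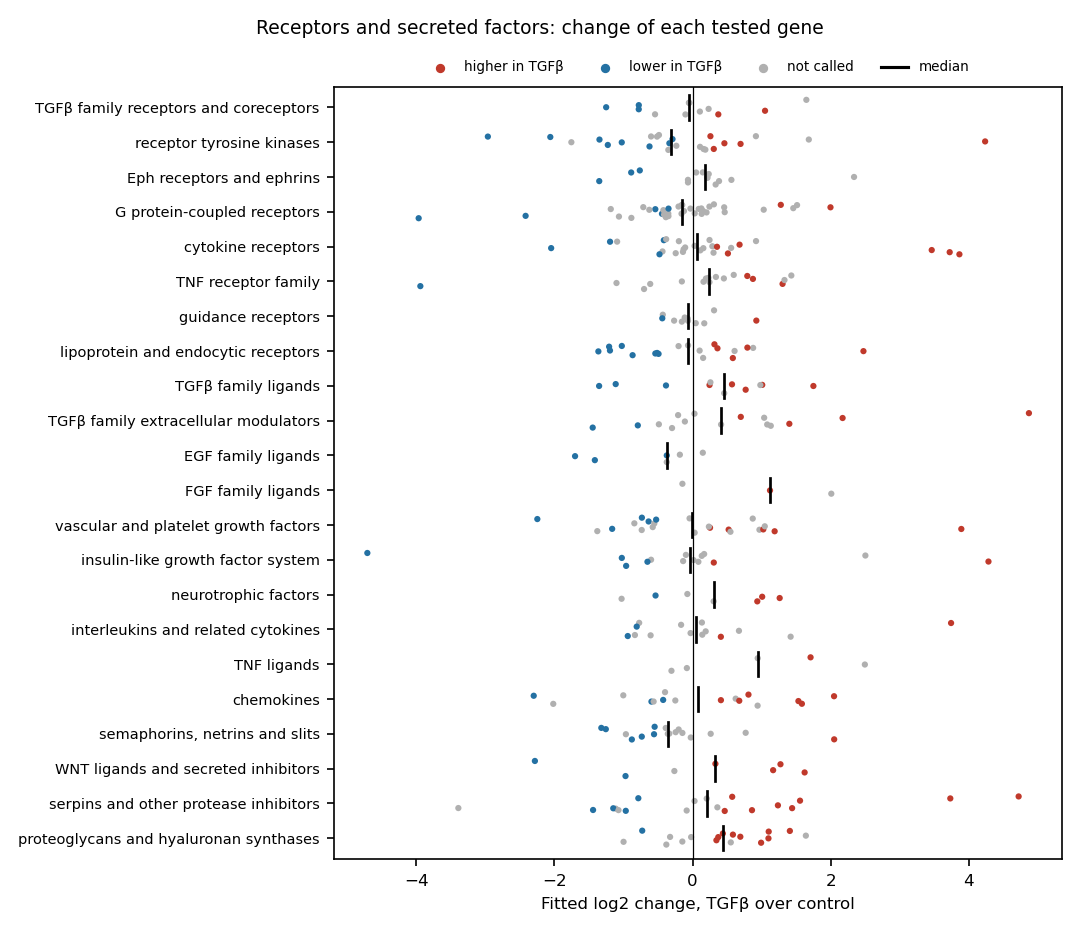
Fitted log2 change of TGFβ over control (x axis) for each tested gene of 8 receptor and 14 secreted-factor lists (rows), coloured by call, with a vertical bar at each list's median. Proteoglycans and serpins lie mostly right of 0, with medians of 0.44 and 0.21, and receptor tyrosine kinases and semaphorins mostly left, with medians of -0.31 and -0.36.

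Metabolic enzymes fell more often than they rose. Of 395 tested genes, 41 were higher and 100 lower, 35.7% against 19.4% of all genes, with a median log2 change of -0.16. Enzymes that modify and cross-link collagen rose more often than they fell. Of them, 24 of 30 listed genes passed the filter. In the test, 11 were higher and 3 lower, 58.3% called, and the median log2 change was 0.26. Leaving out control replicate 1 or 3 left 7 higher. Loxl2, a cross-linking lysyl oxidase, stood at 18.4, 25 and 22.8 CPM with TGFβ, against 2.68, 1.0 and 2.7 CPM in control (log2 change 3.37 ± 0.34, adjusted p = 2.76e-10). Plod2, a lysyl hydroxylase, stood at 258, 249 and 291 CPM with TGFβ, against 139, 112 and 138 CPM in control (log2 change 1.04 ± 0.10, adjusted p = 7.47e-11). P3h2, a prolyl 3-hydroxylase, fell to 38.9, 39 and 47.2 CPM with TGFβ, against 99.8, 111 and 111 CPM in control (log2 change -1.37 ± 0.12, adjusted p = 1.86e-12), and so did Pcolce, an enhancer of procollagen cleavage, with 223, 217 and 186 CPM with TGFβ, against 453, 461 and 435 CPM in control (log2 change -1.11 ± 0.10, adjusted p = 5.73e-12).

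The list of the tricarboxylic acid cycle, which oxidises acetyl-CoA in mitochondria, and of pyruvate entry had the most falls of the metabolic lists. Of its genes, 38 of 39 listed genes passed the filter. Of these, 1 was higher and 22 lower, 60.5% called, and the median log2 change was -0.41. Mpc2, a subunit of the mitochondrial pyruvate carrier, stood at 48.9, 49.5 and 46.9 CPM with TGFβ, against 109.6, 116 and 117 CPM in control (log2 change -1.24 ± 0.13, adjusted p = 2.48e-10). Idh3a, of the NAD-dependent isocitrate dehydrogenase, stood at 65.4, 63.9 and 47.7 CPM with TGFβ, against 121, 117 and 133 CPM in control (log2 change -1.06 ± 0.11, adjusted p = 1.27e-09). Idh2 stood at 109, 105 and 119 CPM with TGFβ, against 217, 199 and 207 CPM in control (log2 change -0.91 ± 0.10, adjusted p = 3.35e-09). The cytosolic malate dehydrogenase Mdh1 fell, with a log2 change of -0.87 ± 0.10. All these libraries of TGFβ cells lay below all control libraries. Citrate synthase, Cs, and the succinyl-CoA ligase Suclg1 did not pass (-0.25 ± 0.11 and -0.22 ± 0.11). The share of mitochondrial reads, which was also lower in TGFβ libraries, is given above.

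Genes of branched-chain amino acid breakdown fell where they passed. For branched-chain amino acid breakdown, 25 of 26 listed genes passed the filter and 10 passed the test, each of them lower, 40% called. The median log2 change of the tested genes was -0.36. Acat1, a mitochondrial thiolase, stood at 75, 53.1 and 70.5 CPM with TGFβ, against 140.4, 128 and 137 CPM in control (log2 change -1.03 ± 0.12, adjusted p = 1.42e-08). Oxct1, which activates ketone bodies, stood at 147, 184 and 150.1 CPM with TGFβ, against 293, 281 and 285 CPM in control (log2 change -0.83 ± 0.09, adjusted p = 3.01e-09). Bcat1, the cytosolic transaminase at the entry of the pathway, did not pass (log2 change -0.12 ± 0.10, adjusted p = 0.513). For peroxisomal genes, 46 of 57 listed genes passed the filter and 9 passed the test, each of them lower, 19.6% called, near the 19.4% of all genes. The median log2 change of the tested genes was -0.16. The count higher was 1 without control replicate 1 or TGFβ replicate 2. Without TGFβ replicate 2 or 3, 5 were lower. Abcd3, a peroxisomal importer of acyl-CoA, stood at 78.9, 71.6 and 63.1 CPM with TGFβ, against 116, 114 and 127 CPM in control (log2 change -0.73 ± 0.12, adjusted p = 1.00e-05). Ddo, D-aspartate oxidase, stood at 3.71, 6.13 and 3.93 CPM with TGFβ, against 14.4, 13.7 and 13.2 CPM in control (log2 change -1.56 ± 0.31, adjusted p = 1.36e-04). Far1, of ether lipid synthesis, did not pass (log2 change -0.05 ± 0.12, adjusted p = 0.849). The aminotransferases Got1 and Got2 of the malate-aspartate shuttle fell, with log2 changes of -0.76 ± 0.10 and -0.47 ± 0.09, and the proline-pathway enzyme Aldh4a1 changed by -0.75 ± 0.14, whereas Glud1 did not pass (log2 change -0.04 ± 0.10, adjusted p = 0.866). Chdh, choline dehydrogenase, which leads choline toward betaine, fell to 19.9, 21.7 and 23.3 CPM with TGFβ, against 49.2, 52.8 and 47.8 CPM in control (log2 change -1.21 ± 0.17, adjusted p = 4.68e-07).

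Lipid droplet and eicosanoid genes held sharp changes in both directions. Plin2, the coat protein of lipid droplets (ENSMUSG00000028494, chromosome 4, 86648386 to 86670060, minus strand), stood at 355, 389 and 374 CPM with TGFβ, against 134, 120.1 and 121 CPM in control (log2 change 1.57 ± 0.10, adjusted p = 5.33e-16). Mgll, which cleaves monoacylglycerol, stood at 20.1, 14.5 and 26.8 CPM with TGFβ, against 3.38, 2.29 and 5.07 CPM in control (log2 change 2.51 ± 0.29, adjusted p = 4.87e-09). Lipg, endothelial lipase, fell to 5.05, 4.87 and 3.69 CPM with TGFβ, against 22.3, 21.2 and 16.9 CPM in control (log2 change -2.13 ± 0.32, adjusted p = 2.15e-06). Dgat1, which makes triglyceride, stood at 34.2, 35.5 and 24.8 CPM with TGFβ, against 47.5, 56.9 and 50.8 CPM in control (log2 change -0.70 ± 0.16, adjusted p = 8.08e-04). Over the triglyceride and droplet list, 32 of 46 listed genes passed the filter. In the test, 4 were higher and 7 lower, 34.4% called, and the median log2 change was 0.08. There were 2 higher when control replicate 2 or TGFβ replicate 1 was left out. The cyclooxygenases moved in opposite directions: Ptgs2, the inducible form, stood at 8.09, 9.58 and 13.3 CPM with TGFβ, against 1.41, 0.429 and 0.507 CPM in control (log2 change 3.65 ± 0.48, adjusted p = 1.02e-07). Ptgs1, the constitutive form, stood at 8.26, 8.64 and 9.83 CPM with TGFβ, against 40.3, 42.2 and 40.03 CPM in control (log2 change -2.20 ± 0.20, adjusted p = 7.34e-12). Ptgds, which makes prostaglandin D2, stood at 3.54, 4.87 and 3.19 CPM with TGFβ, against 58.5, 61.3 and 51.2 CPM in control (log2 change -3.85 ± 0.27, adjusted p = 7.45e-15). The phospholipase Pla2g16 rose to 226, 222 and 266 CPM with TGFβ, against 97.8, 108 and 96.4 CPM in control (log2 change 1.24 ± 0.10, adjusted p = 1.49e-13) and the epoxide hydrolase Ephx1 fell (log2 change -0.68 ± 0.09, adjusted p = 1.86e-07). For eicosanoid enzymes, 17 of 39 listed genes passed the filter. Of these, 2 were higher and 6 lower, 47.1% called, and the median log2 change was -0.06.

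Several detoxifying enzymes fell. For glutathione transferases, 17 of 26 listed genes passed the filter. Among those tested, 1 was higher and 8 lower, 52.9% called, and the median log2 change was -0.79. Gstm1 stood at 64.2, 50.9 and 46.2 CPM with TGFβ, against 665, 663 and 624 CPM in control (log2 change -3.59 ± 0.13, adjusted p = 2.38e-24). Gstm2 stood at 47, 38.2 and 40.8 CPM with TGFβ, against 137, 148 and 137 CPM in control (log2 change -1.74 ± 0.13, adjusted p = 9.40e-14), and the microsomal Mgst1 at 16.2, 15.6 and 16 CPM with TGFβ, against 33.5, 39.7 and 40.9 CPM in control (log2 change -1.26 ± 0.18, adjusted p = 1.09e-06). Gstm genes are close copies of each other, so reads may be split between them. Gsto1, of the omega class, was the member that rose, with 351, 311 and 362 CPM with TGFβ, against 141, 141 and 136 CPM in control (log2 change 1.29 ± 0.09, adjusted p = 1.76e-14). Adh7, which oxidises retinol, fell to 166, 149 and 214 CPM with TGFβ, against 515, 458 and 469.7 CPM in control (log2 change -1.45 ± 0.10, adjusted p = 5.73e-15), while Rdh5, another retinol dehydrogenase, rose to 7.25, 5.34 and 8.84 CPM with TGFβ, against 0.423, 1.14 and 2.03 CPM in control (log2 change 2.58 ± 0.50, adjusted p = 1.39e-04) and Adh5 did not pass (log2 change -0.08 ± 0.10, adjusted p = 0.665). Over dehydrogenases and aldo-keto reductases, 38 of 65 listed genes passed the filter. With TGFβ, 1 was higher and 9 lower, 26.3% called against 19.4% of all genes, and the median log2 change was -0.31. Leaving out control replicate 3 left 5 lower. Cyp1b1, a cytochrome P450 of steroids and xenobiotics, rose to 32.4, 29.9 and 36.9 CPM with TGFβ, against 13.2, 13.6 and 12.8 CPM in control (log2 change 1.31 ± 0.21, adjusted p = 5.49e-06). The sulfotransferase Sult1c2 fell to 0.674, 0.786 and 1.23 CPM with TGFβ, against 5.21, 6.15 and 10.1 CPM in control (log2 change -3.01 ± 0.56, adjusted p = 6.82e-05). Nnmt, the enzyme of the study's title, did not pass and its groups overlapped, with 29, 35.7 and 28.5 CPM with TGFβ, against 27.6, 33.2 and 30.2 CPM in control (log2 change 0.04 ± 0.16, adjusted p = 0.918).

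Several genes of iron uptake, oxidation and storage fell. Besides Tfrc, Cp, the ferroxidase ceruloplasmin, stood at 145, 147 and 131 CPM with TGFβ, against 619, 629 and 621 CPM in control (log2 change -2.14 ± 0.09, adjusted p = 3.83e-21). Fth1, the ferritin heavy chain, stood at 324, 301 and 279.8 CPM with TGFβ, against 708, 707 and 720.1 CPM in control (log2 change -1.24 ± 0.08, adjusted p = 2.34e-15), and the metalloreductase Steap2 at 272, 273 and 293 CPM with TGFβ, against 375, 381 and 377 CPM in control (log2 change -0.44 ± 0.08, adjusted p = 6.69e-05). The metallothionein Mt1 fell (log2 change -0.34 ± 0.08, adjusted p = 0.00116) and Mt2 did not pass (log2 change 0.10 ± 0.11, adjusted p = 0.585). Ferritin has many pseudogenes, so its count is uncertain. Over metallothionein, iron and haem genes, 26 of 38 listed genes passed the filter. In the test, 2 were higher and 10 lower, 46.2% called, and the median log2 change was -0.21. The count higher was 1 without control replicate 1 or 2 or 3 or TGFβ replicate 3. Without TGFβ replicate 1, the higher calls were lost.

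Nucleotide and pentose phosphate enzymes had the highest median of the metabolic lists after collagen modification, 0.23. Of 43 tested, 8 were higher and 5 lower, 30.2% called against 19.4% of all genes. Nt5e, the surface enzyme CD73 that makes adenosine, stood at 105, 98.4 and 112 CPM with TGFβ, against 38.2, 37.5 and 35.5 CPM in control (log2 change 1.50 ± 0.12, adjusted p = 3.05e-13). Impdh1, of guanine nucleotide synthesis, stood at 41.6, 43.4 and 59.9 CPM with TGFβ, against 22.7, 23 and 25 CPM in control (log2 change 1.03 ± 0.17, adjusted p = 1.01e-05). Rrm1, of ribonucleotide reductase, stood at 256, 241 and 242 CPM with TGFβ, against 171, 180.2 and 189 CPM in control (log2 change 0.45 ± 0.09, adjusted p = 1.87e-04). Tkt, transketolase of the pentose phosphate pathway, fell to 173, 208 and 153 CPM with TGFβ, against 282, 309.7 and 319.8 CPM in control (log2 change -0.77 ± 0.15, adjusted p = 1.32e-04) and Taldo1 did not pass (log2 change -0.09 ± 0.10, adjusted p = 0.618). In glycosaminoglycan synthesis the epimerase Dse rose to 22.9, 26.6 and 26.5 CPM with TGFβ, against 8.32, 9.01 and 10.5 CPM in control (log2 change 1.45 ± 0.25, adjusted p = 1.42e-05) and the keratan sulfotransferase Chst1 fell to 4.55, 2.04 and 2.46 CPM with TGFβ, against 19.2, 16.7 and 15.7 CPM in control (log2 change -2.49 ± 0.27, adjusted p = 1.24e-09).

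**Figure D4:**
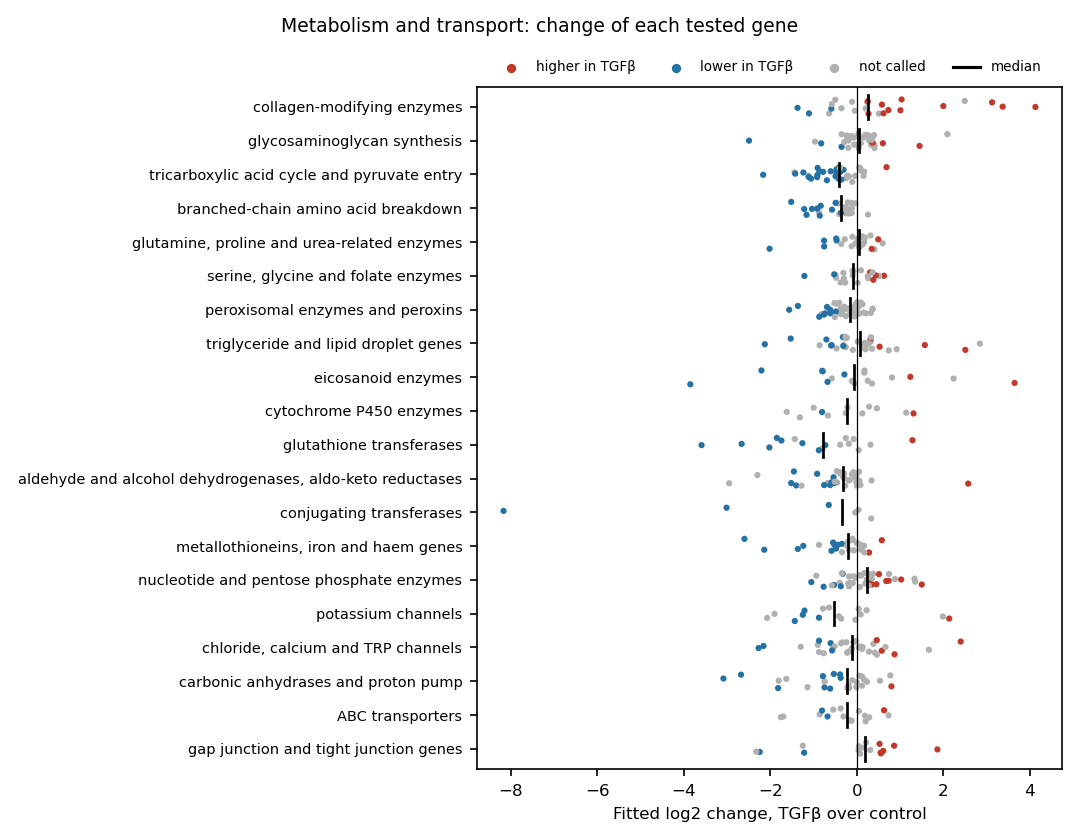
Fitted log2 change of TGFβ over control (x axis) for each tested gene of 15 metabolic and 5 transport lists (rows), coloured by call, with a vertical bar at each list's median. The list of the tricarboxylic acid cycle and pyruvate entry lies mostly left of 0, with a median of -0.41. Glutathione transferases reach the lowest list median, -0.79, and collagen-modifying enzymes lie right, with a median of 0.26.

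Transport genes also fell more often than they rose. Of 110 tested, 13 were higher and 22 lower, 31.8% against 19.4% of all genes, with a median of -0.17. The potassium channels Kcnj16 and Kcnj15, both of the basolateral tubule membrane, and Kcnk5, an acid-sensing channel of the proximal tubule, fell: Kcnj16 stood at 82.1, 90.2 and 61.7 CPM with TGFβ, against 187, 182 and 191 CPM in control (log2 change -1.25 ± 0.10, adjusted p = 1.38e-12), Kcnj15 changed by -0.87 ± 0.12 and Kcnk5 by -1.21 ± 0.14. Car2, the cytosolic carbonic anhydrase, stood at 17.2, 19.95 and 15.7 CPM with TGFβ, against 57.5, 68.2 and 62.3 CPM in control (log2 change -1.82 ± 0.18, adjusted p = 1.34e-10). Car12, the membrane form, stood at 4.55, 3.46 and 6.88 CPM with TGFβ, against 29.9, 28.2 and 34.5 CPM in control (log2 change -2.68 ± 0.25, adjusted p = 3.38e-11). The proton pump subunits Atp6v1b2 and Atp6v0e2 fell, with log2 changes of -0.53 ± 0.10 and -0.78 ± 0.10, while Atp6v1a and Atp6v1f did not pass (-0.19 ± 0.07 and -0.10 ± 0.07). In the carbonic anhydrase and proton pump list, 27 of 42 listed genes passed the filter. Of these, 1 was higher and 9 lower, 37% called, and the median log2 change was -0.22. The calcium channel Cacna1g, a T-type subunit, rose to 149, 151 and 167 CPM with TGFβ, against 81.3, 82.1 and 91.2 CPM in control (log2 change 0.87 ± 0.10, adjusted p = 2.85e-09), whereas the cation channels Trpm3 and Trpv4 fell, with log2 changes of -2.16 ± 0.30 and -0.60 ± 0.12. Of junction genes, Cldn1 fell to 49.4, 49.3 and 47.9 CPM with TGFβ, against 110.5, 119.96 and 111 CPM in control (log2 change -1.22 ± 0.12, adjusted p = 7.67e-11). Cldn2, the pore-forming claudin of the proximal tubule, stood at 0.842, 2.83 and 0.737 CPM with TGFβ, against 10.01, 8.58 and 3.38 CPM in control (log2 change -2.24 ± 0.58, adjusted p = 0.00378), while F11r, the adhesion molecule JAM-A, rose to 372, 359.6 and 399 CPM with TGFβ, against 201, 218 and 201 CPM in control (log2 change 0.86 ± 0.09, adjusted p = 6.67e-10). Over gap and tight junction genes, 16 of 51 listed genes passed the filter. Among those tested, 6 were higher and 2 lower, 50% called, and the median log2 change was 0.19.

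Markers of other cell types were read beside these groups. The summed level of 15 fibroblast and pericyte markers was 128 to 139 CPM in the TGFβ libraries and 8.42 to 12.9 CPM in the control libraries, with most of it from the collagen genes. Of them, 7 had no read in any of the 6 libraries, among them Pdgfra, Lum, Tcf21, Dpt and Thy1. The 19 immune markers summed to 68.4 to 90.2 CPM in the TGFβ libraries and 122 to 125 CPM in the control libraries; Csf1r, which overlaps a neighbour, carried most of it and 10 markers had no read, among them Adgre1, Itgam, Cd3e and Tyrobp. The 12 endothelial markers summed to 36.5 to 42.4 CPM in TGFβ and 27.0 to 38.1 CPM in control, and Pecam1, Cdh5, Kdr, Tek, Tie1 and Vwf had no read. The proximal tubule markers summed to 1352 to 1597 CPM in TGFβ and 2046 to 2150 CPM in control. Aqp1 carried the lower sum. Without it the other 22 markers summed to 1229 to 1515 CPM in TGFβ and 1062 to 1105 CPM in control. The cadherin Cdh6, with most of these reads, rose to 1098, 1012 and 1276 CPM with TGFβ, against 722, 724 and 697 CPM in control (log2 change 0.66 ± 0.08, adjusted p = 9.45e-09). Of the 8 proximal tubule markers tested, 1 was higher, Cdh6, and 5 were lower, 75% called against 19.4% of all genes. Besides Aqp1, the lower ones included Mme, Anpep and Lrp2, with log2 changes of -1.12, -2.32 and -0.51.

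The same comparison was open in cells that received a supplement, with libraries that share none with the 6 above. Of the 1307 genes higher without supplement, 991 were also called higher in TGFβ+NAM against NAM, 75.8% of them and 67.6% of the 1465 called there. Of the 1312 lower genes, 1010 were called lower there too, 77.0% of them and 68.2% of 1481. In TGFβ+SAM against SAM, 955 of the higher genes (73.1% of them) and 1038 of the lower genes (79.1%) were called in the same direction, out of 1910 higher and 1914 lower there. These comparisons called 21.9% of tested genes with NAM and 28.4% with SAM. The sign was the same for 98.9% of called genes with NAM, both for the higher and for the lower ones, against 76.1% of all tested genes. With SAM it was the same for 96.2% of the higher and 97.4% of the lower genes, against 73.9% of all.

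The test of the difference between the TGFβ effects called 0 of 13469 genes (0%) for NAM by edgeR and 0 by DESeq2. At an unadjusted p under 0.05 the edgeR test passed 462 genes, fewer than this threshold would pass if no gene differed. For SAM it called 193 (1.43%), of which 30 were named genes. Of these 30, 27 had the same sign without supplement and a larger change with SAM, and Hs6st1, Scx and Lrp2 did not. Named genes were picked in part by their p without supplement. The same count was not made over the 193 or over all genes, so nothing is read from it. Vgll3 rose by 3.39 ± 0.19 with SAM, 2.42 ± 0.17 with NAM and 2.10 ± 0.17 without supplement. Inhba changed by 3.18 ± 0.12 with SAM, 1.68 ± 0.11 with NAM and 1.75 ± 0.11 without, and Adh7 by -2.37 ± 0.10, -1.29 ± 0.10 and -1.45 ± 0.10 in the same order. Plin2 and Egr1, which the test did not call, changed by 1.89 ± 0.10 and -1.94 ± 0.11 with SAM, 1.69 ± 0.10 and -1.86 ± 0.10 with NAM, and 1.57 ± 0.10 and -2.05 ± 0.11 without. The SAM and TGFβ+SAM libraries carry a run of library numbers of their own, whose part in this difference was not tested, and SAM replicates 2 and 3 carry treatment tags at odds with their titles.

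**Figure D5:**
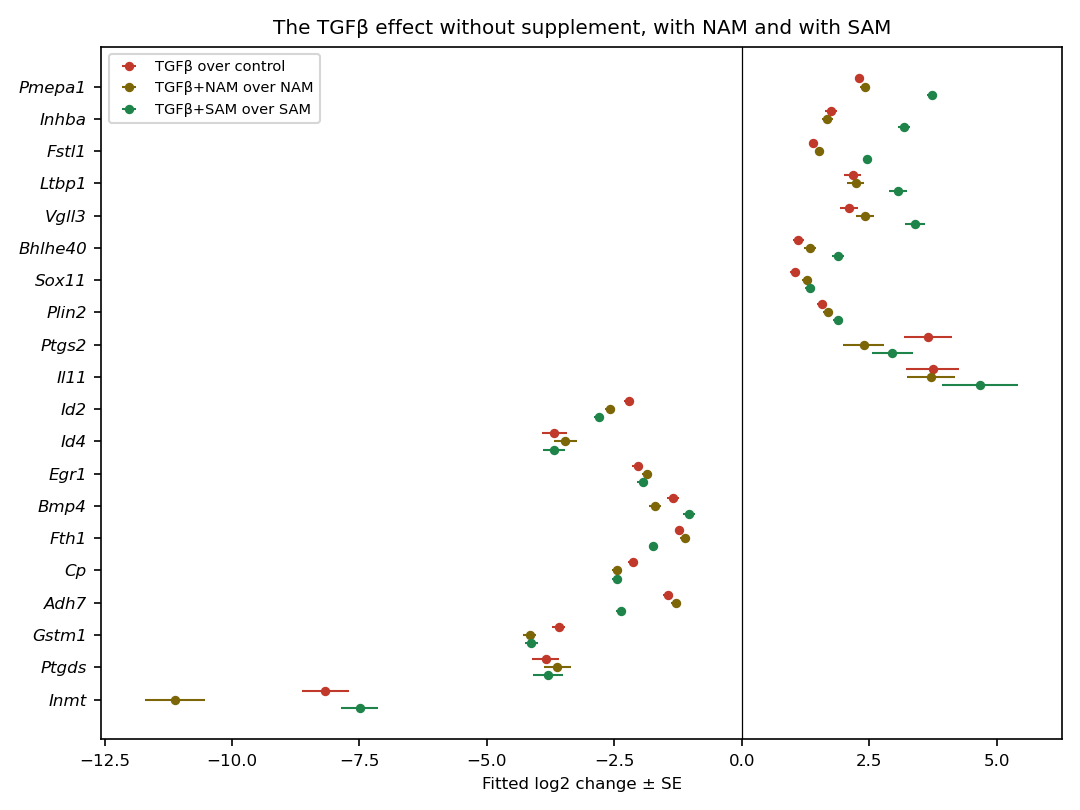
Fitted log2 change ± SE (x axis) of 20 named genes (rows) for TGFβ over control, TGFβ+NAM over NAM and TGFβ+SAM over SAM. Every gene kept its direction in the 3 comparisons, and Pmepa1, Inhba and Vgll3 lie further from 0 with SAM.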

How the data were processed

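The deposited table holds raw counts, whole numbers of reads per gene and library, which the authors made with STAR and HTSeq per the submitters' processing notes; versions and the strand setting are not given in the sources used here. The notes name GRCh38, although all 55487 gene rows carry mouse Ensembl identifiers, of which 55141 matched a symbol in GENCODE M21 (GRCm38). Of 5 special rows, 2 hold reads; reads outside genes (24.9% to 27.0% of all reads in the 6 libraries) and ambiguous reads (0.655% to 0.717%) stayed out of every fit. All 18 libraries entered 1 edgeR 4.0.16 quasi-likelihood fit (R 4.3.3; TMM scaling, filterByExpr minimum count of 10, no covariate beside group), with two-sided tests and Benjamini-Hochberg adjustment over 13469 genes. With 3 libraries a group, the smallest exact permutation p is 0.1, so single genes were tested in the model. The members and lists were chosen with earlier results of these data known. Named were the 12 largest rises and falls with a mean of at least 5 CPM and no overlap, from each list up to 5 called genes with the smallest p and 2 not called with the highest level, and Nnmt, Tgfb1 and Smad7. Some genes under this rule are not reported here. Alternatives were DESeq2 1.42.0, other scalings and filters, fewer libraries and a replicate block; same-numbered libraries did not deviate together (r from -0.01 to 0.03).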

Additional observations from a re-analysis of the deposited data

Results flagged for a closer look

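For 30 named genes the TGFβ effect with SAM differed from that without supplement by the interaction test at an adjusted p under 0.05 (edgeR); each value below is the effect with SAM minus the effect without. Among secreted factors and receptors it was 6.97 for Tnfsf15, 2.17 for Il1rl1, 1.97 for Ccl17, 1.43 for Inhba, 1.39 for Wnt7a, 1.17 for Ccn2, 1.10 for Fmod, 1.05 for Fstl1, 0.96 for Pdgfb, 0.89 for Ltbp1, 0.80 for Lrp2 and -2.16 for Cxcl5. The large value of Tnfsf15 is a fitted change against a SAM group without a read and is no bound. Among transcription factors and feedback genes it was 1.43 for Pmepa1, 1.29 for Vgll3, 0.77 for Bhlhe40, 0.57 for Scx, -0.59 for Id2 and -0.62 for Nr2f2. Among enzymes, transporters and structural genes it was 1.09 for Acta2, 0.82 for Nt5e, 0.81 for Krt8, 0.71 for Loxl1, 0.56 for Hs6st1, 0.51 for Ddah1, 0.51 for Cacna1g, -0.50 for Fth1, -0.72 for Mme, -0.91 for Adh7, -1.18 for Aqp1 and -1.50 for Chst1. The SAM and TGFβ+SAM libraries carry library numbers of their own, whose part in these values was not tested.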

How the results depend on the processing

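Every count of called genes over the whole table stayed within 1.5 times its value in each setting run. Genes higher numbered 994 to 1571 and lower 1049 to 1617 over all settings, and 994 to 1123 and 1049 to 1112 with 1 library left out; where a group was left with 2 libraries the fit tested more genes. By 2-fold the ranges were 308 to 378 higher and 395 to 478 lower. SAM interaction calls ranged from 131 to 285, and NAM interaction calls were 0 in every setting and in DESeq2. The 285 came from the fit without NAM replicate 3 and TGFβ+NAM replicate 1, which also called 1455 genes higher and 1500 lower. These 2 libraries had the lowest shares of reads outside genes in the series, 23.9% and 22.8%. Their part in the spread behind the p-values was not tested further. With a replicate block, 1272 genes were higher and 1298 lower, 2546 of the 2570 called were also called without the block, and SAM interaction calls were 186; same-numbered libraries share only a number, and their deviations correlated at r = 0.03, 0.02 and -0.01. Among the named genes the block ended the calls of Rgma (adjusted p = 0.0578) and Acvr2a (adjusted p = 0.0559) and no other. Of 264 named calls, 226 held in every setting, 38 were lost in at least 1, 20 of 119 genes that did not pass were gained in at least 1, and none of the 264 changed sign. Scaling moved the median log2 change of all genes from 0.01 with TMM to -0.02 with library totals.

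List counts move with the setting where they are small: 52 of 128 changed by over 1.5 times in at least 1. Beyond the libraries named above, with library totals the higher count was 2 for AP-1 factors, 3 for TGFβ family ligands and 1 for iron genes, and without the filter it was 3 for these ligands. With the 6 compared libraries alone, the higher count was 13 for nucleotide enzymes and 2 for clock factors, for dehydrogenases and for carbonic anhydrases, and the lower count was 1 for ETS factors, 1 for WNT genes and 2 for proteoglycans. A single nuclear receptor, HOX factor and peroxisomal gene was called higher in that fit. The cause was not tested. Depth limits genes of a few CPM, among them Cytip and Serpinf1 with an SE of 0.60 and 0.64 on the log2 scale.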
